A study of Mus musculus with 8 samples.

Results

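Arg1, Arg2 and Nos2 encode 3 enzymes that consume arginine, and they were taken by name from the 2000 genes of the deposited single-cell expression table. The rule uses no measured value, but the genes were chosen with earlier results of these data known. Gatm, which also uses arginine, is in the table and is described with the other pathway genes. Arg1 (ENSMUSG00000019987) encodes the cytosolic arginase of the urea cycle and lies on the minus strand at chr10:24915221-24927484 in GENCODE M21, on build GRCm38. Arg2 (ENSMUSG00000021125) encodes the mitochondrial arginase and lies on the plus strand at chr12:79130777-79156301. Nos2 (ENSMUSG00000020826) encodes the inducible nitric oxide synthase and lies on the plus strand at chr11:78920787-78960254. All 3 are protein coding, and the values are given per gene, not per transcript.

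Both arginases split arginine into ornithine and urea, and ornithine feeds the synthesis of polyamines and proline. Inducible nitric oxide synthase turns the same substrate into nitric oxide and citrulline. In mouse macrophages Arg1 is widely used as a mark of alternative activation by interleukin 4, Nos2 as a mark of activation by interferon gamma and microbial products, and arginine withdrawal by arginase is known to restrain T cells in tumours.

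The samples were tumours of Hepa1-6, a mouse hepatoma line, profiled by droplet single-cell RNA sequencing of 3′ transcript ends. The labels give 8 entries in 4 groups: unedited tumours with intraperitoneal PBS, unedited tumours with intraperitoneal antibody against the checkpoint receptor PD-1, Soat1-edited tumours with PBS, and Soat1-edited tumours with that antibody, each with a cDNA and an oligo entry. For the edited tumours the entry names say KO, whereas their genotype entries say knockdown. Host strain, age, the number of animals and whether the edited cells are 1 clone are not given in the sources used here. The table pools 53528 cells in 6 sets, shown by the last digit of the cell name, and nothing ties a set to a group. The 6 sets are therefore unassigned samples, no genotype or treatment is compared, and no p-value is given.

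The values are natural logs. In set 1 they return whole unique molecular identifiers (UMIs, one per captured RNA molecule), so levels are given there as counts per 1000000 UMIs (CPM). Set 1 cells held 1001 to 261833 UMIs. In sets 2 to 6 the values had been changed further and can be negative. Means and shares above a value of 1 are therefore compared between cells of the same set. The part of that change in differences between sets was not tested. On the log scale 1 UMI gives a lower value in a deeper cell, so shares above 1 also depend on depth within a set. In set 1, 40.5% of hepatoma cells held an Arg2 UMI, and 8.05% of hepatoma cells had an Arg2 value above 1. Intervals are 95% and cover counting error only.

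Cells were sorted into classes by marker genes that hold none of the 3 enzymes. In all sets 4373 cells were gated as macrophages, 919 as monocytes, 470 as neutrophils, 451 as dendritic cells, 12257 as T cells, 328 as NK cells, 725 as fibroblasts and 28994 as hepatoma cells. A further 3430 cells passed no gate and 1581 passed several. Set 1, after removal of predicted doublets, gave 652 macrophages, 79 monocytes, 92 neutrophils, 44 dendritic cells, 1237 T cells, 26 NK cells, 70 fibroblasts and 6420 hepatoma cells. Every class led in the sum of its own marker list, but the gates use these markers, so the lead is no check of the classes. Some single markers went the other way. Trem2 was at 29.2 CPM in macrophages and 37.6 in monocytes, and H19 at 0.0598 in hepatoma cells and 104 in fibroblasts. Of the monocyte markers, at 135 CPM each in monocytes, Chil3 was at 234 in neutrophils and Vcan at 321 in fibroblasts. The 7 macrophage markers, C1qa, C1qb and C1qc among them, summed to 8485 CPM in macrophages and 222 CPM in monocytes. The 10 neutrophil markers, such as S100a8 and Csf3r, summed to 26272 CPM in neutrophils and 230 CPM in macrophages. Depth differed strongly between classes: the median cell held 1282 UMIs in neutrophils, 2746 in macrophages, 2987 in monocytes, 4711 in T cells and 17861 in hepatoma cells. The 15 hepatoma markers, mostly secreted liver proteins such as Alb and Apoa1, still summed to 2065 CPM in T cells and 5067 CPM in neutrophils, against 17978 CPM in hepatoma cells.

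The 2 arginase genes are related, so their GENCODE M21 transcripts were compared to see whether short reads could be confused. No run of 30 bases was shared between the transcripts of any pair of the 3 genes, on either strand.

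Arg1 was highest in macrophages and monocytes. Macrophages of set 1 held 1055 Arg1 UMIs, or 428 CPM (402 to 454), and 26.4% of them (23.0 to 29.9) had at least 1. Monocytes held 197 UMIs, or 740 CPM (640 to 851), but these sat in 14 of 79 cells, and 5 cells carried 78.7% of them. In macrophages the top 5 cells carried 27.2%.

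Other classes held little Arg1. T cells had 27 UMIs, 3.38 CPM, in 1.78% of cells, and hepatoma cells had 290 UMIs, 1.93 CPM, in 3.33% of cells. Dendritic cells, NK cells and fibroblasts had 1 UMI each. Neutrophils had none in 92 cells of set 1, with an interval up to 17.0 CPM, where 3 UMIs would be 13.8 CPM. On the deposited scale 0% of neutrophils lay above an Arg1 value of 1 in sets 1 to 3. The share was 4.73%, 2.13% and 5.80% in sets 4 to 6, and in sets 4 and 6 only macrophages and monocytes had a higher mean. At 1000 UMIs per cell an Arg1 UMI was seen in 0.404% of T cells and 0.405% of hepatoma cells, against 18.3% of macrophages. The part of free RNA in these low shares was not tested. Macrophages stood 126-fold (86.4 to 193) over T cells and 222-fold (195 to 253) over hepatoma cells in Arg1.

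The order of macrophages and monocytes depended on how cells were weighed. By summed UMIs the ratio of macrophages over monocytes was 0.578 (0.496 to 0.677), so monocytes were higher. Without the 5 cells of each class with most Arg1 UMIs, macrophages held 316 CPM and monocytes 168 CPM, and the log2 ratio turned from -0.79 to 0.91. On the deposited log scale, which weighs single cells less, the macrophage mean was 0.66, 0.73, 0.50, 0.92, 0.64 and 0.63 in sets 1 to 6. The monocyte mean was 0.58, 0.25, 0.29, 0.47, 0.32 and 0.21. Macrophages were higher in 6 of 6 sets, while the macrophage means themselves differed by set. The share of macrophages with a deposited Arg1 value above 1 was 24.1%, 34.1%, 12.9%, 42.1%, 25.2% and 26.8% in sets 1 to 6.

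**Figure D1:**
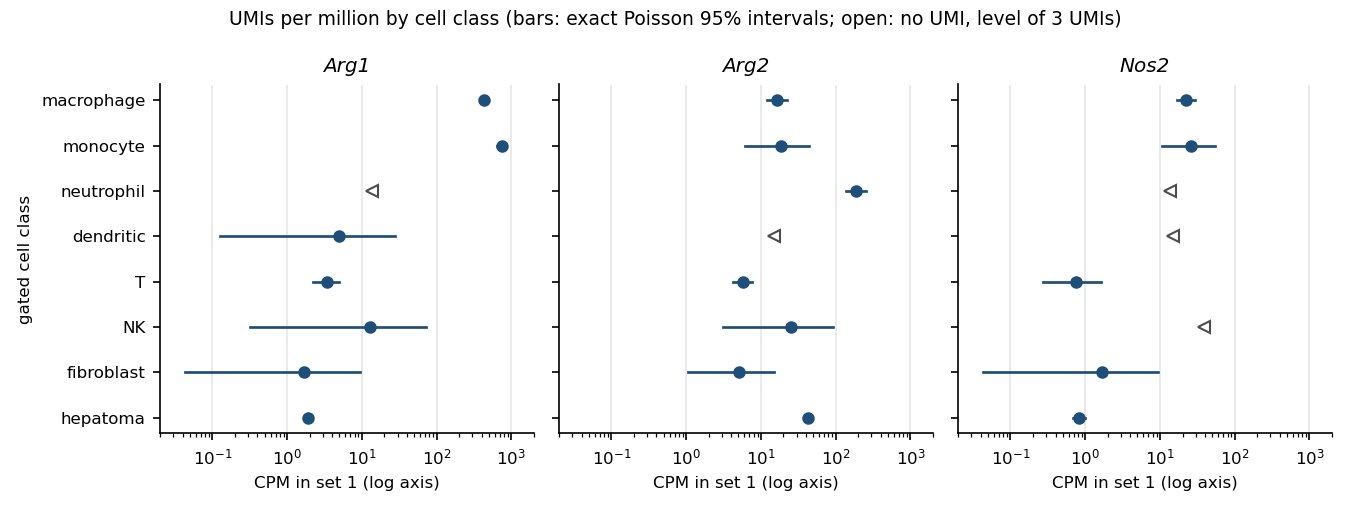
Level of each enzyme gene in 8 gated cell classes of set 1, in CPM on a log axis. Points are summed UMIs over summed cell totals, lines are exact Poisson 95% intervals, and open triangles mark classes with no UMI at the level 3 UMIs would give; Arg1 and Nos2 lie highest in macrophages and monocytes, Arg2 in neutrophils and then hepatoma cells.

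Arg2 had another distribution: neutrophils led, and hepatoma cells followed. Neutrophils held 41 Arg2 UMIs, or 189 CPM (135 to 256), in 32.6% of 92 cells. Hepatoma cells held 6360 UMIs, or 42.3 CPM (41.3 to 43.3), in 40.5% of cells. Hepatoma cells are far deeper, so at 1000 UMIs per cell the shares were 23.9% in neutrophils and 4.33% in hepatoma cells, against 0.566% in T cells. Neutrophils were 11.3-fold (7.17 to 17.9) over macrophages and 4.46-fold (3.20 to 6.05) over hepatoma cells. Hepatoma cells were 7.33-fold (5.49 to 10.0) over T cells and 8.30-fold (2.84 to 40.3) over fibroblasts.

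Macrophages held 41 Arg2 UMIs, 16.6 CPM (11.9 to 22.6), and monocytes held 5 UMIs, 18.8 CPM (6.10 to 43.8), so these 2 classes did not differ beyond counting error in set 1. On the deposited scale the share of cells with Arg2 above 1 was higher in monocytes in 6 of 6 sets, for example 13.7% against 4.09% in set 3 and 14.0% against 7.35% in set 4, and the mean was higher in 5 of 6. T cells held 5.77 CPM (4.22 to 7.69). The 15 hepatoma markers stood at 2065 CPM in T cells and 3713 CPM in macrophages, and the part of free RNA from hepatoma cells in the Arg2 of these classes was not tested. Dendritic cells had no Arg2 UMI in 44 gated cells, with an interval up to 18.2 CPM. With classes from clusters 21 dendritic cells held 3 Arg2 UMIs, 44.2 CPM (9.12 to 129), so their place in the order is not settled.

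By mean deposited value neutrophils ranked first and hepatoma cells second in 6 of 6 sets. The neutrophil mean was 0.68, 0.93, 0.43, 0.37, 0.74 and 0.53 in sets 1 to 6, over 30 to 148 cells a set. The hepatoma mean was 0.27, 0.31, 0.30, 0.35, 0.29 and 0.31. These means did not overlap across sets, although neutrophils of set 4 came within 0.02 of hepatoma cells of that set. By median the order did not hold: neutrophils lay below hepatoma cells in set 4, at -0.54 against 0.19, and in set 6, at 0.07 against 0.15, and both medians were 0 in set 1. The share of neutrophils with Arg2 above 1 was 16.7% to 48.8% over the sets. By this share hepatoma cells were not second in each set. Monocytes lay above them in sets 3, 4 and 6, for example 13.7% against 7.98% in set 3. NK cells did so in set 5, at 10.7% of 28 cells against 6.27%.

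Nos2 was the rarest of the 3. Macrophages held 55 Nos2 UMIs, or 22.3 CPM (16.8 to 29.0), in 29 of 652 cells, which is 4.45% (3.00 to 6.33), and 5 of these cells carried 43.6% of the UMIs. Without those 5 cells the level was 12.9 CPM. Monocytes held 7 UMIs in 3 cells, or 26.3 CPM (10.6 to 54.2), and the ratio of macrophages over monocytes, 0.848 (0.385 to 2.21), did not separate them. T cells held 0.752 CPM, with a UMI in 0.485% of cells, and hepatoma cells held 0.825 CPM in 1.46%. Neutrophils, dendritic cells and NK cells had no Nos2 UMI. Macrophages were 29.7-fold (12.8 to 84.3) over T cells and 27.0-fold (19.3 to 37.4) over hepatoma cells.

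On the deposited scale the macrophage Nos2 mean was 0.071, 0.068, 0.089, 0.179, 0.143 and 0.149 in sets 1 to 6, and the monocyte mean was 0.076, 0.069, 0.063, 0.089, 0.021 and 0.087. Macrophages led in 4 of 6 sets and monocytes in sets 1 and 2, by at most 0.01. The share of macrophages above a value of 1 was 3.49%, 6.08%, 4.20%, 15.1%, 5.93% and 11.7%. Set 4 held the highest share above 1 for both Arg1 and Nos2 in macrophages. It was also highest in hepatoma cells, at 1.66% for Arg1 and 0.867% for Nos2. The part of the changed values in this order was not tested.

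Against all genes of the table, a large ratio between classes was common. Calls of 2-fold here and for the gene lists use CPM with 1 added on both sides, which lowers the ratio of rare genes. In macrophages over T cells, 3 of 3 enzyme genes were higher by 2-fold or more, beside 33.7% of 1459 genes with at least 10 UMIs higher and 25.3% lower. In macrophages over hepatoma cells Arg1 and Nos2 were higher and Arg2 lower, where 22.4% of genes were higher and 29.5% lower. In neutrophils over macrophages Arg2 was higher, where 24.2% of genes were higher and 27.2% lower. In neutrophils over hepatoma cells Arg2 was higher, where 23.7% of genes were higher and 27.1% lower. In hepatoma cells Arg2 was higher than in T cells, where 34.4% of genes were higher and 22.1% lower, and higher than in fibroblasts, where 29.7% were higher and 27.8% lower. Ranked by ratio, Arg1 in macrophages over T cells lay above 98.3% of genes, Nos2 above 89.2% and Arg2 above 76.2%. Arg2 in neutrophils over macrophages lay above 96.6%.

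**Figure D2:**
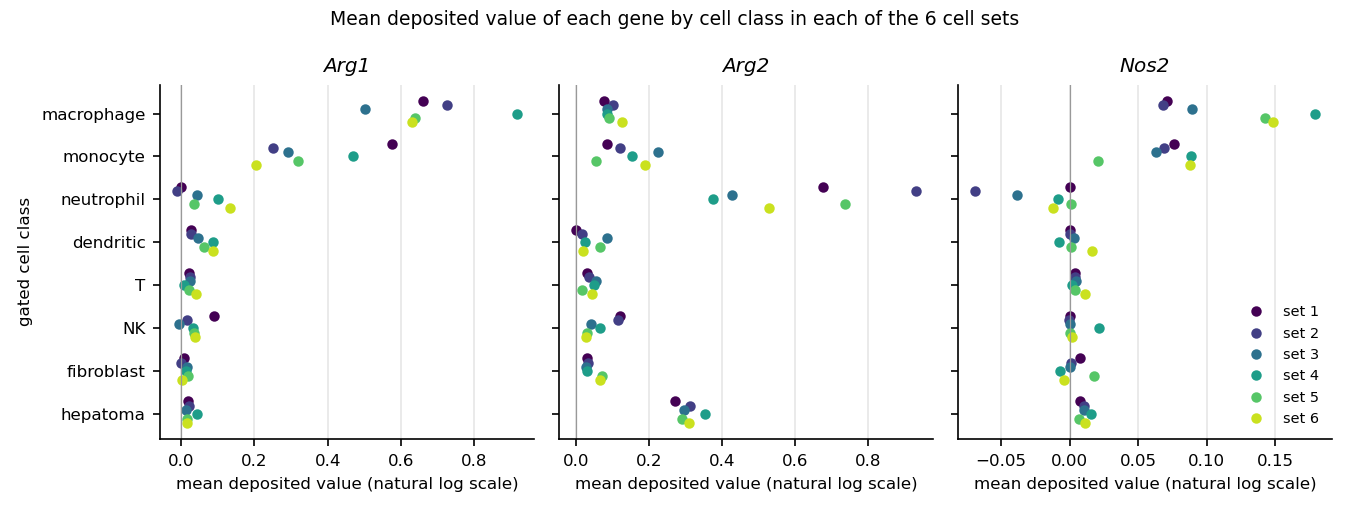
Mean deposited value (natural log scale) of Arg1, Arg2 and Nos2 in each gated cell class, 1 point per cell set. Macrophages lead in Arg1 in 6 of 6 sets, neutrophils and then hepatoma cells lead in Arg2 in 6 of 6 sets, and the 3 horizontal axes have different ranges.

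Arg1 and Nos2 were not mutually exclusive in single macrophages. In set 1, 172 macrophages had an Arg1 UMI, 29 had a Nos2 UMI and 13 had both, beside 7.65 cells from the product of the single shares, a quotient of 1.70. Of macrophages with Nos2, 44.8% (26.4 to 64.3) also had Arg1, beside 25.5% (22.1 to 29.1) of macrophages without Nos2. Macrophages with Nos2 were deeper, with a median of 3678 UMIs against 2719. At 1000 UMIs per cell both genes were seen in 4 cells beside 2.01 from the product, and at 2 UMIs or more in 4 beside 2.12. Arg1 stood at 1601 CPM in macrophages with Nos2 and 339 CPM in the others.

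The same held on the deposited scale in 6 of 6 sets. With a value above 1 as present, 9 of 23 Nos2 macrophages had Arg1 in set 1, 17 of 31 in set 2, 11 of 38 in set 3, 82 of 142 in set 4, 17 of 31 in set 5 and 47 of 98 in set 6. These are 39.1%, 54.8%, 28.9%, 57.7%, 54.8% and 48.0%. Among the other macrophages the shares were 23.6%, 32.8%, 12.2%, 39.3%, 23.4% and 24.0%. The quotient of the joint share over the product of the single shares was 1.37 to 2.24. Depth is not known in sets 2 to 6, and its part there was not tested.

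Few macrophages held Arg2 with either of the other genes. In macrophages of set 1, 1 cell had Arg2 with Nos2, beside 1.65 from the product, and 14 cells had Arg1 with Arg2, beside 9.76. The Arg1 and Arg2 quotient was 1.00 at 1000 UMIs per cell, and 0.47 to 1.63 over the 6 sets, above 1 in 5 of them. Of 652 macrophages 441 had none of the 3 genes, 185 had 1, 25 had 2 and 1 had all 3. The 92 neutrophils of set 1 had no Arg1 or Nos2 UMI, so none could hold more than 1 of the 3. In hepatoma cells of set 1, 148 of 6420 held 2 and 4 held all 3.

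**Figure D3:**
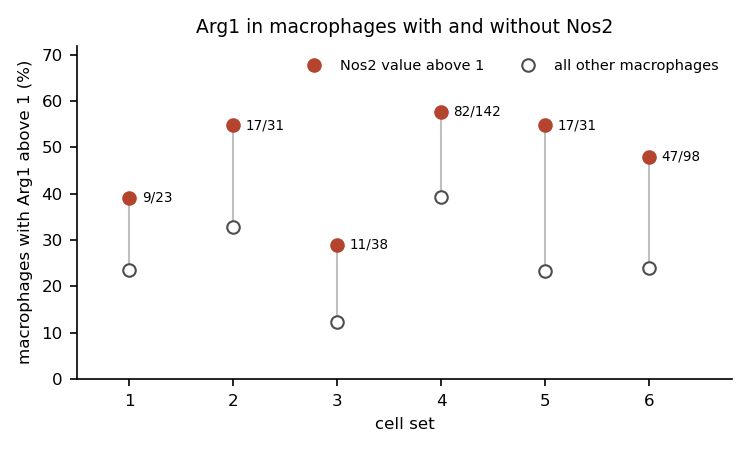
Share of macrophages with a deposited Arg1 value above 1, in percent, among macrophages with a Nos2 value above 1 (filled) and all other macrophages (open) in each cell set. The fractions give Arg1 cells over Nos2 cells, and the filled point lies above the open one in 6 of 6 sets.

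Macrophages with Arg1 were compared with those without it for 3 lists of genes. With all UMIs 3 of 10 interferon gamma genes with at least 10 UMIs were lower by 2-fold or more and 0 were higher, with a median log2 ratio of -0.71, beside 7.91% of 1113 genes lower and 6.38% higher. At 1000 UMIs per cell 5 of 9 were lower and 0 higher, with a median of -1.18. The plan named thinning for this comparison, while counting list genes after thinning was added after the data were seen. Over all 782 genes of that setting 16.4% were lower and 10.5% higher, and the median was -0.08. The ratios that follow are at 1000 UMIs per cell unless stated. Cxcl9, a chemokine that draws T cells through CXCR3, stood at 336 CPM with Arg1 and 839 CPM without, a ratio of 0.401 (0.282 to 0.555). Cxcl10, another ligand of that receptor, had a ratio of 0.389 (0.279 to 0.529), and H2-Ab1, a chain of the MHC class II complex, 0.441 (0.359 to 0.536). Gbp5, a guanylate-binding protein induced by interferon, had 0.228 (0.0457 to 0.699) from 3 UMIs with Arg1, and Tnf had 0.256 (0.0298 to 0.996) from 2 UMIs.

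Of the alternative activation list 6 of 16 genes were higher by 2-fold or more and 1 lower with all UMIs, and 3 of 14 were higher and 2 lower at 1000 UMIs per cell. Mmp12, the macrophage elastase, stood at 10958 CPM with Arg1 and 3146 CPM without, a ratio of 3.48 (3.24 to 3.75). Spp1, osteopontin, had a ratio of 6.47 (4.64 to 9.07) and Gpnmb, a membrane glycoprotein of lipid-laden macrophages, 3.50 (1.99 to 6.09). Mrc1, the mannose receptor, had 1.18 (0.899 to 1.53), Retnla, a gene strongly induced by interleukin 4, had 1.01 (0.663 to 1.51), and Mgl2, a lectin receptor, had 0.360 (0.141 to 0.775). Mrc1, Cd163 and Trem2 are also gate markers, so their range within the class is limited by the gate. Without thinning the Retnla ratio was 0.398 (0.329 to 0.478).

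Of the hypoxia list 5 of 14 genes were higher and 0 lower with all UMIs, and 6 of 13 were higher and 1 lower at 1000 UMIs per cell, with medians of the log2 ratio of 0.72 and 0.76. Adm, which encodes the vasodilator adrenomedullin, had a ratio of 13.4 (4.07 to 57.2), Egln3, an oxygen-sensing hydroxylase, 3.26 (2.11 to 4.98), Ero1l, an oxidase of the endoplasmic reticulum, 2.53 (1.66 to 3.80), Ndrg1 2.24 (1.54 to 3.21) and Bnip3 2.13 (1.52 to 2.94). On the deposited scale 10 of 15 hypoxia genes were higher with Arg1 in 6 of 6 sets and 2 were lower, beside 140 of 2000 genes, or 7%, higher and 12.4% lower in 6 of 6 sets. Of the interferon gamma list 6 of 12 genes were lower in 6 of 6 sets and 0 higher, and of the alternative activation list 7 of 16 were higher and 0 lower. These 7 were Spp1, Vegfa, Slc2a1, Mmp12, Cd36, Trem2 and Gpnmb, of which Vegfa and Slc2a1 are also in the hypoxia list, while Mrc1 was higher in 5 sets, Retnla and Chil3 in 4 and Mgl2 in 1.

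Depth and other markers moved with this split. With all UMIs the median cell held 2731.5 UMIs with Arg1 and 2756 without, in 172 and 480 cells. In the split at 1000 UMIs per cell, 119 against 533 cells, the medians before thinning were 2203 and 2869. In that split the summed macrophage markers were 7664 and 9852 CPM, the neutrophil markers 513 and 225 CPM, the dendritic markers 555 and 1009 CPM, and the monocyte markers 471 and 326 CPM with and without Arg1, and their part was not tested.

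Macrophages with Nos2 were compared with those without it for the same lists. Only 11 macrophages kept a Nos2 UMI at 1000 UMIs per cell, the setting the plan named. There 6 of 13 hypoxia genes were higher by 2-fold or more and 4 lower. Of the interferon gamma list 1 of 9 was higher and 4 lower, and of the alternative activation list 3 of 14 and 5. The median log2 ratio over all 782 genes was -1.08, itself past the 2-fold call for lower. The lower counts therefore show no loss particular to these lists, and the higher counts stand without a share over all genes. Values that follow use all UMIs, in 29 cells against 623, with medians of 3678 and 2719 UMIs. Of 14 hypoxia genes 5 were higher by 2-fold or more and 0 lower, beside 10.5% of 1113 genes higher and 21.8% lower. Ndrg1 had a ratio of 3.31 (2.64 to 4.12), Bnip3 2.51 (2.01 to 3.11) and Egln3 2.47 (1.81 to 3.33). Mmp12 had 2.26 (2.13 to 2.39) and Il1rn, the interleukin 1 receptor antagonist, 2.55 (2.01 to 3.20). Mrc1 was lower, with a ratio of 0.275 (0.175 to 0.411), and Retnla with 0.242 (0.143 to 0.384). Cxcl9 had 1.09 (0.917 to 1.29), Cxcl10 1.16 (0.994 to 1.35) and H2-Ab1 0.856 (0.761 to 0.959). Of the alternative activation list 4 of 16 genes were higher and 4 lower with Nos2, and of the interferon gamma list 0 of 10 were higher and 1 lower.

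Across sets, 7 of 15 hypoxia genes were higher with Nos2 in 6 of 6 sets and 0 lower, beside 6.05% of 2000 genes higher and 9.6% lower. Mmp12 differed most of the listed genes, by 1.09 to 2.01 on the natural log scale. Of the alternative activation list 7 of 16 genes were higher with Nos2 in 6 of 6 sets, Spp1, Gpnmb and Cd36 among them, and 2 were lower, Mrc1 by a median of -0.24 and Cd163 by -0.02. Of the interferon gamma list 3 of 12 were higher in 6 of 6 sets, Cxcl9, H2-Ab1 and Ptgs2, and 1 was lower, Il1b, while Cxcl10 was higher in 3 of 6. Cxcl9 and H2-Ab1 were higher with Nos2 in 6 of 6 sets, by medians of 0.15 and 0.21, and lower with Arg1 in 6 of 6 sets, by medians of -0.48 and -0.71. In set 1 the summed-UMI ratio of H2-Ab1 with Nos2 went the other way. Il1b was lower with either gene in 6 of 6 sets. The summed macrophage markers were 6362 CPM with Nos2 and 8646 CPM without, and their part was not tested.

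**Figure D4:**
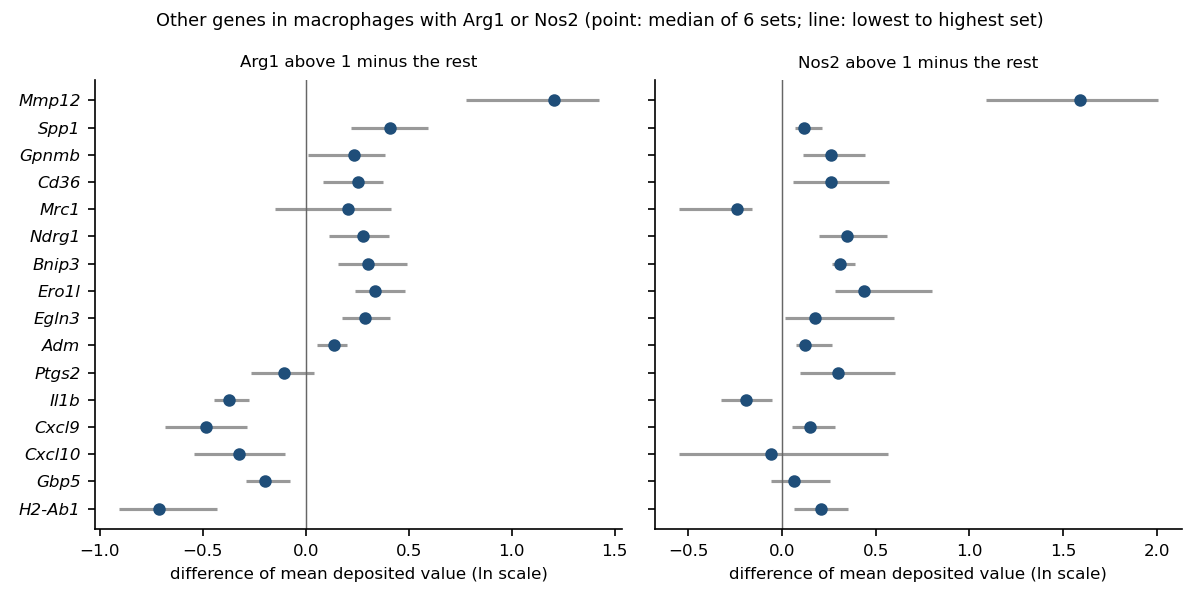
Difference of mean deposited value (natural log scale) between macrophages with and without Arg1 (left) or Nos2 (right) for 16 genes of the 3 lists. Points are the median of 6 sets and lines run from the lowest to the highest set; Mmp12 and the hypoxia genes Ndrg1, Bnip3, Ero1l, Egln3 and Adm lie above 0 on both sides, Cxcl9 and H2-Ab1 below 0 with Arg1 and above 0 with Nos2.

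In hepatoma cells Arg2 was higher where Ndrg1 and Bnip3 were high. Both are widely used reporters of the hypoxia-inducible factors: Ndrg1 encodes a stress-responsive protein and Bnip3 a mitochondrial protein of mitophagy. Cells were split at the median CPM of each gene, 235 for Ndrg1 and 268 for Bnip3. Arg2 was 75.9 CPM (73.6 to 78.2) in the 2608 cells high in both, 36.9 CPM (34.4 to 39.6) in the 1204 cells high in 1, and 19.6 CPM (18.6 to 20.7) in the 2608 cells low in both. High over low gave a ratio of 3.86 (3.64 to 4.10), which lay above 97.2% of 1884 genes. In that contrast 8.86% of genes were higher by 2-fold or more and 12.5% lower.

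Cells high in both genes were shallower, with a median of 15471 UMIs against 23334, and held 20055 CPM of the 15 hepatoma markers against 15659. Fibroblast markers stood at 158 against 300 CPM and NK markers at 19.6 against 6.86 CPM, and the part of these differences was not tested. Within bands of depth the ratio was 3.38 (2.51 to 4.65), 3.17 (2.69 to 3.75), 4.00 (3.52 to 4.55) and 4.04 (3.73 to 4.37) in 4 groups of cells from shallow to deep. At 1000 UMIs per cell it was 2.72 (2.04 to 3.65), and 6.40% of high cells and 2.45% of low cells held an Arg2 UMI. In 10 groups of cells ordered by Ndrg1, Arg2 was 15.2 to 23.5 CPM in the lowest 4 and reached 97.0 CPM (91.6 to 103) in the highest. Ordered by Bnip3 it reached 97.3 CPM (92.1 to 103) in group 9 and 80.8 CPM (75.9 to 85.9) in group 10, so the last step went down.

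The difference was present in each set. Arg2 in cells high in both minus cells low in both was 0.27, 0.33, 0.29, 0.19, 0.28 and 0.23 on the natural log scale in sets 1 to 6, and ranked 56 to 90 among 2000 genes. The correlation over cells of a set, which share library and depth, was 0.22 to 0.39 with Ndrg1 and 0.19 to 0.35 with Bnip3, while Ndrg1 and Bnip3 correlated at 0.73 to 0.77 with each other. Arg1 stood at 1.69 and 1.66 CPM in high and low cells. Nos2 was at 1.32 and 0.481 CPM, beside 0.752 CPM in T cells.

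**Figure D5:**
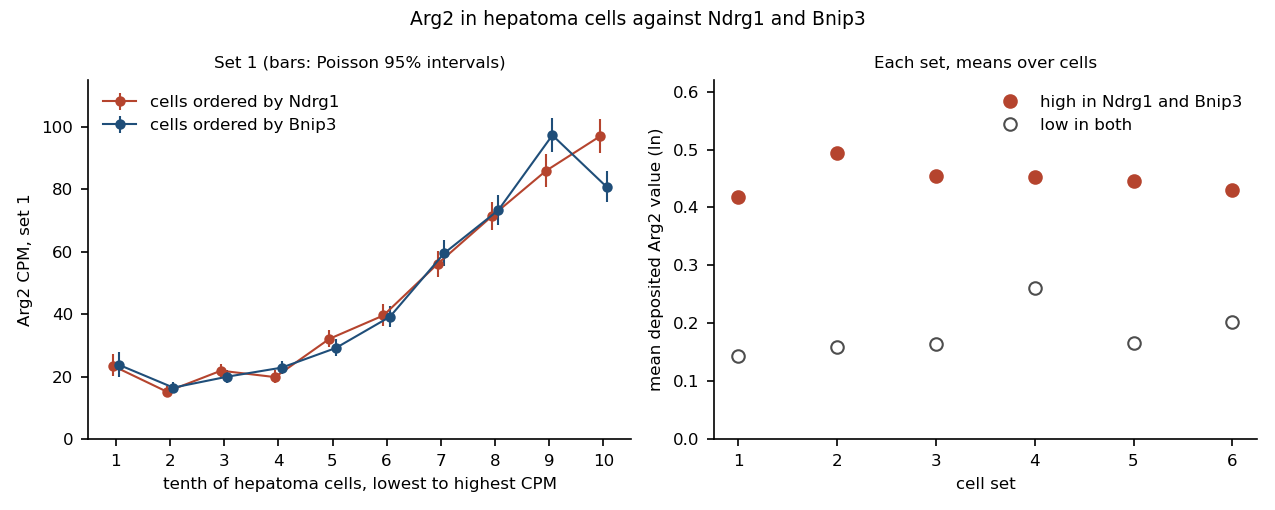
Left, Arg2 CPM in 10 groups of set 1 hepatoma cells ordered by Ndrg1 or Bnip3 CPM, with exact Poisson 95% intervals. Right, mean deposited Arg2 value in hepatoma cells high or low in both genes in each set; high cells lie above low cells in 6 of 6 sets.

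The split used only Ndrg1 and Bnip3 of the hypoxia list. Of the other 13 genes of the list 11 were higher by 2-fold or more and 0 lower, with a median log2 ratio of 1.84. Over all 1884 genes with at least 10 UMIs, 8.86% were higher and 12.5% lower. The list was chosen with earlier results of these data known, so this count is no independent check of the split. Adm, at 1.09 against 0.307 CPM, had a ratio of 3.56 (2.17 to 6.04) and misses the call only through the 1 CPM added. Slc2a1, the glucose transporter GLUT1, had a ratio of 5.34 (5.15 to 5.54), Ero1l 5.19 (5.01 to 5.38), Ankrd37, a hypoxia-induced ankyrin protein, 4.69 (4.48 to 4.92), P4ha2, a collagen prolyl hydroxylase, 4.56 (4.29 to 4.86), and Vegfa, the vascular growth factor, 3.97 (3.87 to 4.06). Arg2 had 3.86. Angptl4, a lipase inhibitor, had 1.11 (0.737 to 1.65), an interval that holds 1.

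Bnip3 serves here as a sequence example of a promoter in that gene group. Its 250 bases before the start, at chr7:138909507-138909756 on the minus strand of RefSeq's GRCm38.p6, are printed 5′ to 3′. Capitals mark ACGTG and GCGTG on either strand, the core letters of the hypoxia response element.
Bnip3: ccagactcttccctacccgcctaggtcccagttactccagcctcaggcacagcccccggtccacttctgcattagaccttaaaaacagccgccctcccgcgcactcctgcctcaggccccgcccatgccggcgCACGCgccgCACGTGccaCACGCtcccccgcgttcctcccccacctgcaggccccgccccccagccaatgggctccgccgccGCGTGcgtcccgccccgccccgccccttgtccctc
The window held 5 matches, and 2 of them overlap in CACGTG, which reads the same on both strands. Among 32851 RefSeq promoter windows of this length, 38.6% held ACGTG or GCGTG, 16.6% held ACGTG and 28.2% held GCGTG. Of the 13 windows of 12 hypoxia-list genes, 12 held at least 1 of the 2 motifs, 11 held ACGTG and 9 held GCGTG. A match describes the letters and shows no binding.

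Other genes of arginine use were taken from a list of 35, of which 8 were in the table. Slc7a2, a cationic amino acid transporter that brings arginine into macrophages, was at 198 CPM in macrophages, 22.5 in monocytes, 20.8 in hepatoma cells and 4.76 in T cells. Gatm, which uses arginine for creatine synthesis, was at 502 CPM in macrophages, 192 in dendritic cells, 101 in monocytes and 1.63 in hepatoma cells. Smox, the spermine oxidase of polyamine breakdown, was at 244 CPM in neutrophils, 143 in monocytes and 60.0 in macrophages. In macrophages Slc7a2 was higher with Arg1, with a ratio of 2.31 (1.93 to 2.77), and with Nos2, with 2.25 (1.72 to 2.90). Smox was higher with Nos2, with 3.09 (1.97 to 4.70).

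In hepatoma cells high over low in Ndrg1 and Bnip3, 1 of these 8 genes was higher by 2-fold or more and 2 were lower. Over all 1884 genes 8.86% were higher and 12.5% lower, so counts from 8 genes do not set this list apart. Smox stood at 99.3 CPM against 25.6, a ratio of 3.87 (3.67 to 4.08). Srm, the spermidine synthase of polyamine formation, stood at 19.7 against 44.9 CPM, a ratio of 0.439 (0.409 to 0.470), and Gchfr, a regulator of the cofactor pathway of nitric oxide synthase, at 0.475 (0.428 to 0.525). Slc7a2 had 1.23 (1.14 to 1.33). Arg2 and Smox were thus higher, and Srm lower, in the same cells.

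Neutrophils with an Arg2 UMI were set against those without, 30 against 62 cells. This contrast uses all UMIs of set 1 and was neither thinned nor repeated in sets 2 to 6. In those sets the correlation of Arg2 with Egln3 over neutrophils was -0.27 to 0.21. Of 10 hypoxia genes 4 were higher by 2-fold or more and 0 lower, beside 10.6% of 481 genes higher and 17% lower. Ndrg1 had a ratio of 3.09 (1.90 to 5.13), Bnip3 2.33 (1.60 to 3.41), Egln3 2.26 (1.51 to 3.39) and Nrn1, a neuronal growth protein, 2.87 (1.61 to 5.24). Ero1l went the other way, with 0.597 (0.403 to 0.869). The summed neutrophil markers were 15911 CPM with Arg2 and 32598 CPM without, the monocyte markers 24.3 and 444 CPM, the dendritic markers 291 and 88.9 CPM and the T cell markers 12.1 and 81.5 CPM, and their part was not tested.

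Genes most like each enzyme were found by Pearson correlation over cells of set 1 in the class where its CPM was highest, given as a description. For Arg1 in 79 monocytes these were Cxcl3 (0.73), Ccl7 (0.64), Pf4 (0.62), Clec4d (0.61) and Hilpda (0.60), and the lowest were mt-Co1 (-0.40) and mt-Atp6 (-0.40). In 652 macrophages, a class added after the values were seen, Adam8, Rgcc, Mmp8, Hilpda and Spp1 led with 0.48 to 0.34, and H2-Ab1 (-0.32) and H2-Aa (-0.29) were lowest. Both H2 genes had a negative correlation in each of sets 2 to 6 too. For Arg2 in 92 neutrophils F10 (0.36), Clec4e, Egln3, Cst3 and Il1f9 led, but none of the 5 kept a positive correlation in each of the other sets except F10, which was at 0.01 to 0.16. For Arg2 in hepatoma cells Igfbp1 (0.35), Igfbp3 (0.32), Tnfaip2 (0.30) and Ndrg1 (0.30) were among the 5 that led, with Ccnd1 (-0.24) and Stmn1 (-0.21), genes of cell division, lowest. Igfbp1 was at 0.35 to 0.39 in the other sets. For Nos2 in monocytes Cxcl3, Arg1, Thbs1, Ero1l and Spp1 led, resting on 3 cells with Nos2. In macrophages Mgll (0.25), Anxa1, Il1rn, Dcstamp and Mmp12 (0.19) led.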

How the data were processed

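The one deposited table holds natural log values for 2000 genes and 53528 cells, made by the authors. STAR 2.7.2b and the builds GRCh38 and mm10 are named per the submitters' processing notes, and PISA and barcodeRanks per the design text. Per the labels, 4 groups have a cDNA and an oligo entry each, counted as 1 sample. All 53528 columns lack a known sample, so no group was compared.

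In set 1 the values are the log of 1 plus UMIs per 10000, and whole UMIs came back for 100% of values within 0.01. The table's genes hold 15.03% of all UMIs. A cell was gated when 2 (macrophage, monocyte), 5 (hepatoma) or otherwise 3 markers exceeded 1; immune and fibroblast cells also had a mean hepatoma marker value below 1. The cut-offs, and leaving out the markers Apoe, Fn1 and Hp, were settled after the values were seen. Scrublet (scanpy 1.11.5) marked 91 of 9370 set 1 cells, 0.971%, which were left out; sets 2 to 6 kept theirs. Ratios use summed UMIs with exact conditional Poisson intervals, shares exact binomial (Clopper-Pearson) ones, log2 values a pseudocount of 1 CPM, and list counts genes with at least 10 UMIs. Code was tested on simulated data. Members and lists were chosen with earlier results of these data known. Named genes are the 3 members, up to 8 listed genes a comparison with the largest or smallest ratio, and the 5 most and 2 least correlated genes. One correlated gene and one sequence are not reported here.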

Additional observations from a re-analysis of the deposited data

How the results depend on the processing

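Alternatives were cluster classes made without the 3 genes, a marker value of 1.5, doublets kept and means over cells. Further ones were thinning to 1000 UMIs, a pseudocount of 0.1 CPM and other splits. Leaving out the 5 top cells and counting list genes after thinning were added after seeing the data. The Arg1 log2 ratio of macrophages over monocytes, -0.79, reversed to 1.53 with cluster classes and to 0.91 without the 5 top cells. The monocyte cluster held 44.4% gated monocytes among its gated cells. The Nos2 log2 ratio, -0.23, was 2.06 and 3.80 in these, and the Nos2 difference of deposited values, 0.04 as a median of sets, was -0.020 with medians over cells. Medians over cells also took the Arg2 difference of neutrophils and macrophages from 0.50 to 0.06, that of hepatoma and T cells from 0.27 to 0.12, and the Arg1 difference of macrophages and monocytes from 0.37 to 0.05. The cause was not tested. Arg1 in macrophages was 544 CPM with clusters, 571 as a mean over cells, 584 thinned and 316 without the 5 top cells; in monocytes these were 187, 906, 911 and 168 CPM. Arg2 was 288 (mean) and 315 CPM (thinned) in neutrophils, and 47.0 and 46.9 CPM in hepatoma cells. Nos2 in macrophages was 12.9 CPM without the 5 top cells. The Arg2 log2 ratio in hepatoma cells, 1.90, was 1.41 thinned, 1.62 by Ndrg1 alone, 1.63 by Bnip3 alone, and 1.71 and 1.62 in the shallowest and next depth groups. The interferon gamma genes lower with Arg1 were 3 with all UMIs or doublets kept, 4 with cluster classes or the stricter marker value, and 5 thinned. Arg2 in dendritic cells was 0 gated and 44.2 CPM with clusters. The other 52 of 75 values that answer a comparison stayed within the main interval or within 1.5 times, among them the joint Arg1 and Nos2 quotient, 1.49 to 1.99. Among 122 further values 92 stayed, 29 moved and 1 reversed. No paired analysis was possible because no set is tied to a group and no replicate numbers exist among the columns. Depth limits Nos2, Arg2 in dendritic cells and every rare class, where 3 UMIs is the floor.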

Other observations

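Cells outside the gates held the enzymes too. In set 1, 542 cells that passed no gate held 328 Arg1 UMIs, 118 CPM (106 to 131), 122 Arg2 UMIs, 43.9 CPM (36.5 to 52.4), and 11 Nos2 UMIs, 3.96 CPM (1.98 to 7.08). A further 117 cells that passed several gates held Arg1 at 54.8 CPM (37.7 to 76.9). These cells enter no comparison.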
